A study of Mus musculus with 8 samples.

Results

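The 10 genes described here, Pdk1, Pdk2, Pdk3, Pdk4, Pdha1, Pdhb, Dlat, Pdp1, Mpc1 and Mpc2, carry pyruvate into mitochondria or make up and control the pyruvate dehydrogenase (PDH) complex. They were chosen by their names and known roles, with earlier results of these data known, from the 53465 Ensembl gene identifiers of the count table, and all 10 were among the 14369 genes that passed the filter on low counts. The study sequenced RNA of mesenchymal stem cells (MSCs, stromal cells of bone that give rise to bone, fat and cartilage) to ask how long exposure to a high oxygen level alters them. There were 4 samples from cultures at 2% oxygen (hypoxia) and 4 from cultures at 21% oxygen (normoxia), numbered 1 to 4 in both groups. Per the methods of the study, the cells came from hind limb bones of wild-type male C57BL/6N mice, and the labels give an age of 3 to 5 months for both groups. Both were kept at the same temperature and carbon dioxide level, in the same medium and without any drug or transgene. MSCs were purified by flow cytometry as CD45-, Ter-119-, Sca-1+ and CD140a+ cells, on day 12 per the labels, and the methods describe sorted cells being divided between the 2 oxygen levels and then cultured for a week. The study calls the samples of a group biologically independent, and whether cells of several animals were pooled is not given in the sources used here. The p-values below set each change against the spread between these samples. Where the replicate number is fitted as a block, that spread is the one of differences within same-numbered samples. In bulk RNA a change in the share of a cell type cannot be told apart from a change in RNA per cell. Total counts were 12898291 to 13433824 in 7 samples and 25132141 in hypoxia replicate 1, which was thus measured with less counting error. A count of 3, taken as the floor, stands for 0.119 to 0.233 CPM, and that floor covers counting error alone.

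Pyruvate is the end product of glycolysis. The mitochondrial pyruvate carrier, built from Mpc1 and Mpc2, brings it across the inner mitochondrial membrane, where the PDH complex turns it into acetyl-CoA for the citric acid cycle and for citrate export. The complex is switched off when PDH kinases (the Pdk genes) phosphorylate its E1 enzyme and switched on again by PDH phosphatases such as Pdp1. Pdk1 is a textbook target of the hypoxia-inducible factors (HIF), whereas Pdk4 is best known as the kinase of fasting and fat oxidation, driven by PPAR, FoxO and glucocorticoid receptors.

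In normoxia, 3 of the 4 kinase transcripts (Pdk1, Pdk2 and Pdk3) were lower and the fourth, Pdk4, was higher than in hypoxia. Pdha1, the catalytic subunit that the kinases phosphorylate, was higher, and both carrier subunits were lower. Of the 10 genes, 7 passed an adjusted p of 0.05 (limma-trend, Benjamini-Hochberg over all tested genes), 2 of them higher and 5 lower in normoxia. The background is high, since 34.6% of all tested genes passed, 18.0% higher and 16.5% lower. Without the deeper hypoxia replicate 1, 7 genes also passed, against 37.1% of the genes tested then, but Mpc1 was no longer among them (adjusted p = 0.0837) and Pdp1 was (adjusted p = 0.00429). The changes were modest in size. The median log2 change of the 10 genes was -0.25, against 0.0049 over all tested genes. In absolute size 7 of the 10 exceeded the median of all tested genes, 0.24, and none exceeded their 90th percentile, 0.62. For 6 of the 10 genes the hypoxia and normoxia values did not overlap, against 32.6% of all tested genes.

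Same-numbered samples were judged to be pairs, so each gene was also fitted with the replicate number as a block. Then 9 of the 10 genes passed, 3 higher and 6 lower in normoxia, against 46.0% of all tested genes, 23.3% higher and 22.7% lower. Within the 4 same-numbered pairs, 9 of the 10 genes moved in 1 direction in all pairs, as did 54.5% of all tested genes. The change of a gene followed the GC content of its transcripts across the experiment (Spearman's rho = -0.39 across 14353 genes, which are not independent replicates). In a further fit, which removes GC content and transcript length as well as the block and is called the corrected fit below, 8 of the 10 passed, 2 higher and 6 lower, against 43.2% of the genes tested in that fit.

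**Figure D1:**
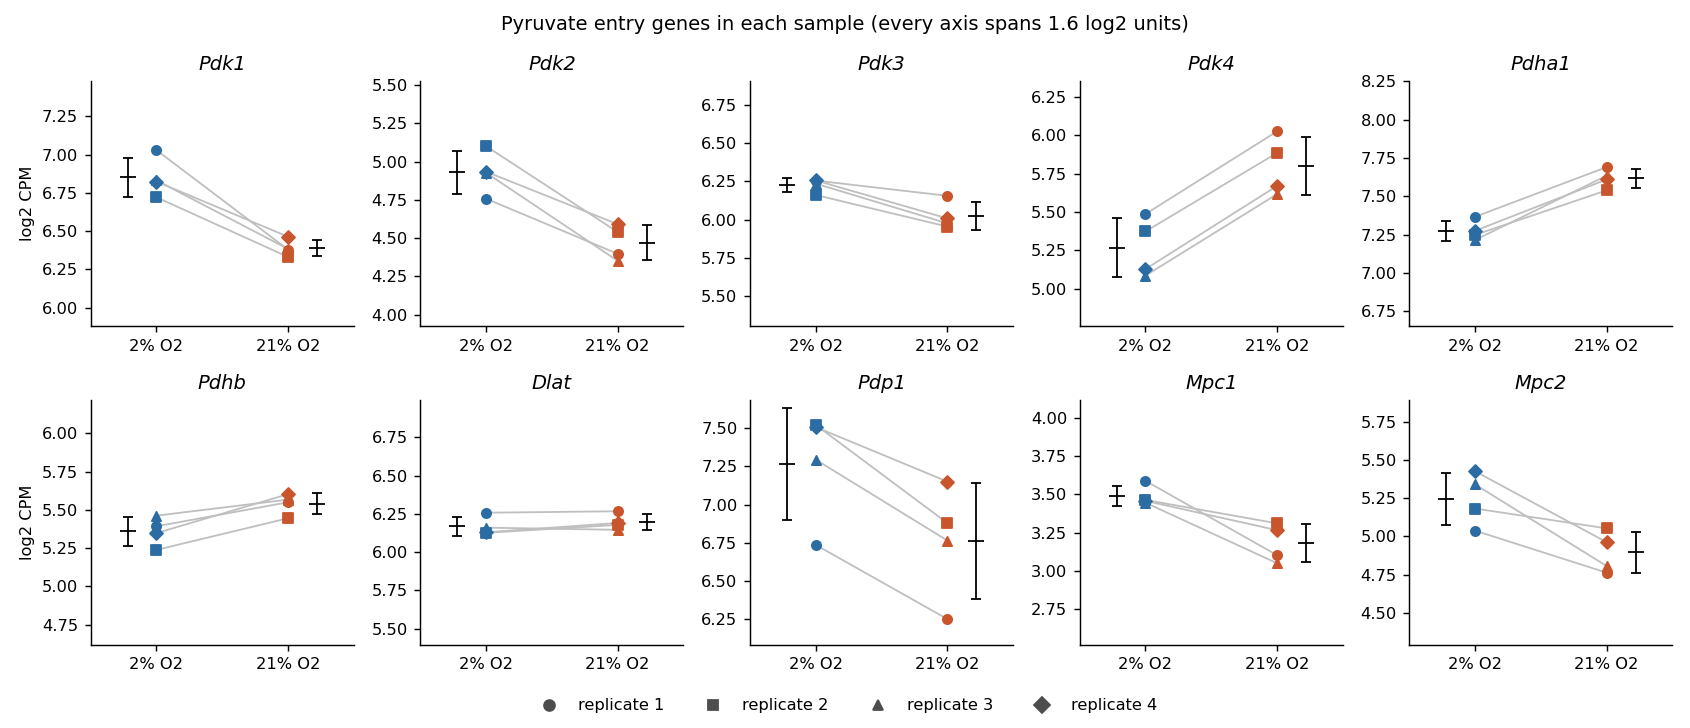
Log2 CPM of the 10 pyruvate entry genes in each sample at 2% and 21% oxygen, with symbols for replicate numbers, grey lines joining same-numbered samples, and black bars at the side for the mean and SD of 4 samples. Every vertical axis spans the same log2 range, the Pdk4 lines all rise and the Pdk1, Pdk2, Pdk3, Pdp1, Mpc1 and Mpc2 lines all fall.

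Because the kinases moved in opposite directions, the sequence around the start of each is shown. The windows run from 250 bases before to 50 bases after the RefSeq transcription start (GRCm38.p6), written 5' to 3' along the gene, and 9 of the 10 genes had one, Pdp1 being without an entry. Capitals mark the letters ACGTG or GCGTG on either strand, the cores of the HIF response element, so that CACGT or CACGC in capitals is the core on the opposite strand. In CACGTG both strands hold the core and the matches overlap.
Pdk1, chr2:71872974-71873273, plus strand: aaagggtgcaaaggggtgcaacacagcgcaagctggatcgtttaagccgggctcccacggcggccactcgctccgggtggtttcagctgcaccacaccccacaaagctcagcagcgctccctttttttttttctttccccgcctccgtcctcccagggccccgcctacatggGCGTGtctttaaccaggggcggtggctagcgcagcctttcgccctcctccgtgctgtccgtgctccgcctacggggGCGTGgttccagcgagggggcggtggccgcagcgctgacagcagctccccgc
Pdk2, chr11:95041322-95041621, minus strand: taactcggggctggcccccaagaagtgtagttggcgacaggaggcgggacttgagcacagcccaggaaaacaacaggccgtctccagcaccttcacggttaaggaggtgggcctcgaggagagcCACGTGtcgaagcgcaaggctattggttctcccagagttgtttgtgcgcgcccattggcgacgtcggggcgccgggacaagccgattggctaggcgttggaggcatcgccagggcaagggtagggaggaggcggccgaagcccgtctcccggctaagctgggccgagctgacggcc
Pdk3, chrX:93832101-93832400, minus strand: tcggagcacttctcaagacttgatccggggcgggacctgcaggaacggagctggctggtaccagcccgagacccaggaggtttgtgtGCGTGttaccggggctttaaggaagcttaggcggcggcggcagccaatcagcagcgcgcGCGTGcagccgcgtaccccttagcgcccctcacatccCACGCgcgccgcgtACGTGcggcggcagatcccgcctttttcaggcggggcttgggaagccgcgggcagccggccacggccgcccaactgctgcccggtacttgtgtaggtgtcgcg
Pdk4, chr6:5496229-5496528, minus strand: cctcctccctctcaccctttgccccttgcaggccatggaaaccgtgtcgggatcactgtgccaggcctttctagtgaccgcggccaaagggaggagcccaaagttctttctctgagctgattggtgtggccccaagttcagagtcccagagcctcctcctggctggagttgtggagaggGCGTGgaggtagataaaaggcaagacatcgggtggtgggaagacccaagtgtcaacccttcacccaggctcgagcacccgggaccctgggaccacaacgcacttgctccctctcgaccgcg

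In these windows Pdk1 held GCGTG with its first base at positions -78 and -2 from the start, and a second Pdk1 start, at chr2:71874654-71874953, held neither core. The Pdk2 window held the single palindrome CACGTG, its cores beginning at -126 and -125. The Pdk3 window had the most kinase matches, ACGTG at -53 and GCGTG at -163, -104 and, on the opposite strand, -67. Pdk4, the kinase that was higher in normoxia, also held a GCGTG, at -71. Among the first windows of the 9 genes, 8 held at least 1 core, 3 of them ACGTG and 7 GCGTG, and the Dlat window held neither. Of 32851 windows of the same length in the RefSeq table, 19.6% held ACGTG, 32.4% GCGTG and 43.8% either. Those windows were not matched in GC content to the 9 first windows, which were 60.7 to 73.7% GC. They also include later starts of a gene, and the second Pdk2 and Mpc1 windows held neither core. The shares are therefore no measure of enrichment. A match is a description of these letters and not evidence of binding.

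Pdk1 (ENSMUSG00000006494, chromosome 2, 71873224 to 71903858, plus strand, GRCm38) encodes the HIF-responsive kinase. Its level was 130.4, 105.3, 113.7 and 113 CPM (counts scaled to a common library size with TMM factors) in hypoxia replicates 1 to 4 and 83.0, 80.3, 83.3 and 88.0 CPM in normoxia. Every hypoxia sample lay above every normoxia sample, and hypoxia replicate 1 was the highest. In normoxia Pdk1 fell by 0.46 on the log2 scale (SE 0.069, 95% CI -0.61 to -0.31, adjusted p = 0.000463, n = 4 per group), a level 1.38 times higher in hypoxia. All 4 pairs moved down, by between -0.65 and -0.36.

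Pdk2 (ENSMUSG00000038967, chromosome 11, 95026258 to 95041354, minus strand), a widely expressed kinase sensitive to pyruvate, had 26.8, 34.1, 30.2 and 30.4 CPM in hypoxia and 20.9, 23.1, 20.2 and 23.9 CPM in normoxia. The groups did not overlap. It fell in normoxia by 0.46 on the log2 scale (SE 0.090, 95% CI -0.66 to -0.26, adjusted p = 0.00228), nearly the same size as Pdk1. Pdk2 had the most GC-rich transcript of the 10 genes, at 56.9%, and in the corrected fit its change was smaller, -0.29 (adjusted p = 0.00185), while that of Pdk1, at 46.4% GC, was -0.58.

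Pdk3 (ENSMUSG00000035232, chromosome X, 93764607 to 93832201, minus strand), a kinase little inhibited by pyruvate, had 76.2, 71.3, 75.1 and 76.2 CPM in hypoxia and 71.1, 61.8, 62.7 and 64.1 CPM in normoxia. The groups were separate by a narrow margin, since normoxia replicate 1 came close to hypoxia replicate 2. Pdk3 fell by 0.20 on the log2 scale (SE 0.062, 95% CI -0.34 to -0.069, adjusted p = 0.0235), the smallest change among the kinases. The adjusted p was 0.0551 without hypoxia replicate 3, 0.0568 without hypoxia replicate 4, and 0.0633, 0.0650 and 0.0511 without normoxia replicates 2, 3 and 4. With the replicate block it was 0.00541.

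Pdk4 (ENSMUSG00000019577, chromosome 6, 5483351 to 5496309, minus strand), the kinase induced by fasting, had 44.6, 41.2, 33.7 and 34.8 CPM in hypoxia and 65.0, 58.9, 48.9 and 50.7 CPM in normoxia. The lowest normoxia sample lay above the highest hypoxia sample, and in both groups replicates 1 and 2 were higher than replicates 3 and 4. Pdk4 rose in normoxia by 0.53 on the log2 scale (SE 0.11, 95% CI 0.29 to 0.77, adjusted p = 0.00304), or 1.45 times. In the corrected fit the rise was smaller, 0.38 (adjusted p = 2.61e-06). Its pair differences were the most even of the 10 genes, at 0.54, 0.51, 0.53 and 0.54 for replicates 1 to 4. Muscle is rich in Pdk4, so skeletal muscle markers were counted. They summed to 24.5 to 38.8 CPM in hypoxia and 8.28 to 13.9 CPM in normoxia, nearly all from Acta1, which fell by 1.33 on the log2 scale (adjusted p = 0.000222). Of the 6 markers, Ckm, Myh4 and Mb had 0 counts in every sample and 2 passed the filter. Whether muscle cells had a part in the Pdk4 values was not tested.

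**Figure D2:**
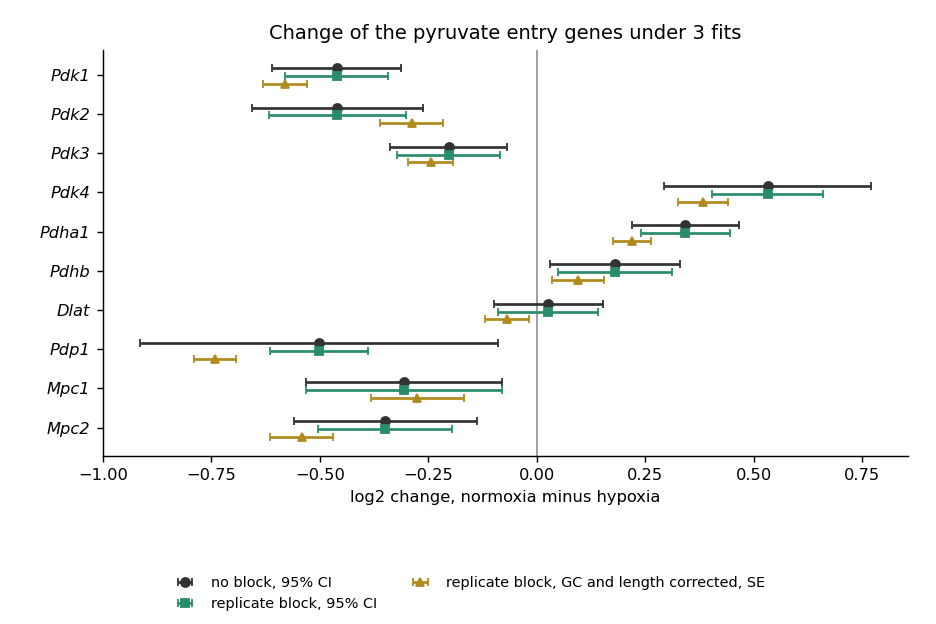
Log2 change from hypoxia to normoxia of each gene under 3 fits, without the block and with the replicate block (bars: 95% CI) and in the corrected fit (bars: SE). Pdk1, Pdk2 and Pdk3 lie left of 0 and Pdk4 and Pdha1 right of 0 in all 3 fits, and the interval of Pdp1 narrows most with the block.

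The kinases also differed in how much of the summed kinase RNA they made up. To compare genes, CPM were divided by the length of the merged exons (CPM per kb), and the shares are given as a description with no test. Pdk3 held the largest share in every sample, 45.2% ± 1.63 at the low and 43.0% ± 1.27 at the high oxygen level (SD, n = 4 each). Pdk4 made up 17.0% ± 1.86 in hypoxia, with 18.8, 18.4, 15.2 and 15.5% in replicates 1 to 4. In normoxia it made up 26.9% ± 2.31, with 29.1, 28.7, 25.1 and 24.8%, so the groups were well apart. The share of Pdk1 was 23.0% ± 1.47 in hypoxia and 18.3% ± 1.27 in normoxia, and that of Pdk2 was 14.9% ± 1.79 and 11.8% ± 1.13. Pdk1 thus stood second after Pdk3 in every hypoxia sample and Pdk4 stood second in every normoxia sample. These shares move with the length used. With the longest transcript in place of merged exons, Pdk4 made up 13.5% in hypoxia and 22.0% in normoxia and Pdk1 made up 27.1% and 22.3%, so that the mean share of Pdk1 was then slightly above that of Pdk4 in normoxia.

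**Figure D3:**
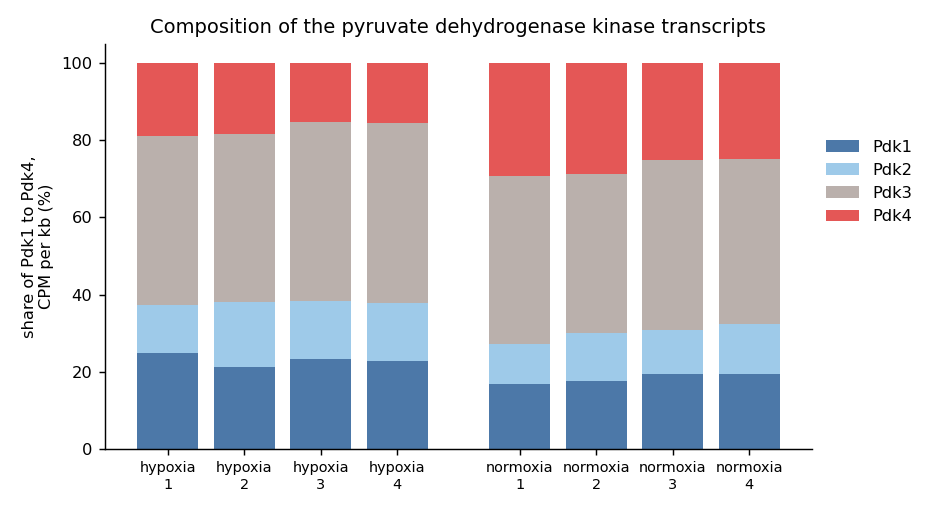
Share of each kinase in the summed per-length level of Pdk1 to Pdk4 (CPM per kb of merged exons, %) in each sample, with the 4 kinases stacked to the whole. The Pdk4 segment spans 15.2 to 18.8% in the hypoxia samples and 24.8 to 29.1% in the normoxia samples.

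Pdha1 (ENSMUSG00000031299, chromosome X, 160122209 to 160138413, minus strand) encodes the E1 alpha subunit that carries the kinase target sites. It had 164.8, 151.8, 148.3 and 154.6 CPM in hypoxia and 206.4, 185.8, 198.5 and 195.1 CPM in normoxia. The groups were separate, and Pdha1 rose by 0.34 on the log2 scale (SE 0.056, 95% CI 0.22 to 0.46, adjusted p = 0.000800). In the corrected fit the change was 0.22 (adjusted p = 0.000122). Pdha1 shares 603 exon bases with Map3k15 on the opposite strand, which had 88 counts over all 8 samples, against 1892 to 3942 counts of Pdha1 per sample.

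Pdhb (ENSMUSG00000021748, chromosome 14, 8165996 to 8173025, minus strand), the E1 beta subunit, had 41.8, 37.6, 43.9 and 40.5 CPM in hypoxia and 46.6, 43.4, 47.2 and 48.4 CPM in normoxia. Only hypoxia replicate 3 and normoxia replicate 2 crossed between the groups. The log2 change was 0.18 (SE 0.069, 95% CI 0.031 to 0.33) and missed the threshold, with an adjusted p of 0.0598 without the block. With the replicate block it passed (adjusted p = 0.0227), all 4 pairs being higher in normoxia. Without hypoxia replicate 3 the adjusted p was 0.0497, and in the corrected fit the change was 0.095 (adjusted p = 0.209).

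Dlat (ENSMUSG00000000168, chromosome 9, 50634633 to 50659780, minus strand), the lipoate-bearing E2 core of the complex, had 69.6 to 76.3 CPM in hypoxia and 70.6 to 76.8 CPM in normoxia. The ranges lay almost on top of each other. The log2 change was 0.027 (SE 0.058, adjusted p = 0.756), with a 95% interval of -0.098 to 0.15. Its sign was negative without normoxia replicate 1 (-0.0099) and in the corrected fit (-0.069), neither past the threshold.

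The subunits of the complex were also set against each other. Per length, Dlat stood at 0.354 ± 0.0094 of Pdha1 in the hypoxia samples and 0.285 ± 0.010 in the normoxia samples (SD, n = 4 each), and Pdha1 at 3.92 ± 0.301 and 4.38 ± 0.169 times Pdhb. The summed level of the 4 kinases was 64.6 ± 2.08 CPM per kb in hypoxia and 59.0 ± 3.34 in normoxia. Relative to their substrate Pdha1 the kinases stood at 1.56 ± 0.026 in hypoxia, between 1.53 and 1.59, and at 1.12 ± 0.057 in normoxia, between 1.04 and 1.18. Relative to the opposing phosphatase Pdp1 they stood lower in hypoxia, at 1.96 ± 0.615, than in normoxia, at 2.54 ± 0.840. The values of the groups overlapped, but the ratio to Pdp1 was higher in normoxia in every same-numbered pair. The kinase sums of the groups overlapped, at 63.1 to 67.7 CPM per kb in hypoxia and 55.5 to 63.5 in normoxia. Within every same-numbered pair the sum was lower in normoxia. The ratios are a description with no test, are of RNA and carry no measure of protein or of phosphorylation.

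Pdp1 (ENSMUSG00000049225, chromosome 4, 11958184 to 11966452, minus strand), the calcium-stimulated phosphatase that reactivates the complex, showed the largest spread of the 10 genes. It had 106.5, 183.4, 156.7 and 181.6 CPM in hypoxia and 76.0, 117.6, 108.6 and 141.9 CPM in normoxia. The groups overlapped because replicate 1 was the lowest in both, hypoxia replicate 1 lying below normoxia replicates 2, 3 and 4. Without the block the log2 change was -0.50 (SE 0.19, 95% CI -0.92 to -0.088) with an adjusted p of 0.0588. With the replicate block Pdp1 fell by the same amount with an SE of 0.055 and an adjusted p of 8.39e-08, each pair moving down, by -0.48, -0.64, -0.53 and -0.36. It also passed without the block when hypoxia replicate 1 was left out (-0.68, adjusted p = 0.00429) or normoxia replicate 4 (-0.64, adjusted p = 0.0263). In the corrected fit the change was larger, -0.74 (adjusted p = 1.89e-13, or 0.0128 with the GC and length correction but no block).

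The summed level of 6 osteoblast and osteocyte markers ran in the same sample order as Pdp1 within each group, which was noticed after the values were seen. Several marker lists had been summed, so the match was picked from several and is a description with no test. It was 40.8, 65.6, 51.2 and 58.2 CPM in hypoxia and 26, 33.6, 33.1 and 37.5 CPM in normoxia. Of the 6 markers 3 passed the filter. Sp7 fell (-0.80, adjusted p = 0.000206), and Ibsp had a change of -0.61 (adjusted p = 0.126, or 6.53e-05 with the replicate block). Dmp1, at 0 to 8 counts per sample, had a change of -0.44 (adjusted p = 0.486). Bglap and Phex, at 2 to 16 and 2 to 12 counts per sample, did not pass the filter, and Sost had 0 counts in every sample. Whether osteoblasts or osteocytes had a part in the Pdp1 values was not tested.

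Mpc1 (ENSMUSG00000023861, chromosome 17, 8282904 to 8297661, plus strand), the obligate partner of Mpc2 in the carrier, was the least counted of the 10 genes, with 112 to 283 counts per sample. It had 11.8, 10.8, 10.7 and 10.8 CPM in hypoxia and 8.39, 9.72, 8.08 and 9.42 CPM in normoxia. The groups did not overlap. Mpc1 fell by 0.31 on the log2 scale (SE 0.10, 95% CI -0.53 to -0.080, adjusted p = 0.0382). This call was the least firm of the 7. The adjusted p was 0.0837, 0.0561, 0.0634 and 0.0658 without hypoxia replicates 1 to 4 in turn, and 0.0819 and 0.0999 without normoxia replicates 1 and 3. A processed pseudogene, Mpc1-ps, had 14 to 43 counts per sample, and with its counts added to Mpc1 the change was -0.28 (adjusted p = 0.0547, or 0.0288 with the replicate block). Mpc1 also shares 480 exon bases with 4930506C21Rik on the opposite strand, which had 28 counts over all samples.

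Mpc2 (ENSMUSG00000026568, chromosome 1, 165460637 to 165481214, plus strand), the other carrier subunit, had 32.6, 36.1, 40.3 and 42.8 CPM in hypoxia and 27.0, 33.0, 27.8 and 31.0 CPM in normoxia. Hypoxia replicate 1 lay just below normoxia replicate 2, so the groups overlapped by these samples. Mpc2 fell by 0.35 on the log2 scale (SE 0.097, 95% CI -0.56 to -0.14, adjusted p = 0.0150), and by 0.54 in the corrected fit (adjusted p = 4.52e-07). Per length of merged exons, Mpc1 stood at 1.04 ± 0.173 times Mpc2 (SD, n = 4) in hypoxia and 1.06 ± 0.032 times in normoxia. With the longest transcript as the length the carrier levels were further apart, 11.5 and 9.45 CPM per kb in hypoxia and 9.27 and 7.39 in normoxia. On that length the values of Mpc1 and Mpc2 did not overlap in either group.

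The calls depend on how libraries were scaled. Scaling by library size alone raised the median change of all genes by 0.084 on the log2 scale, and 69.6% of all calls were then higher in normoxia, in place of 52.2% with TMM. On that scaling 3 of the 10 genes were called higher, against 25.1% of all tested genes, and 2 lower, against 11.0%. Pdk1, Pdk2, Pdk4 and Pdha1 kept their calls. Pdk3 (-0.12, adjusted p = 0.166), Mpc1 (-0.22, adjusted p = 0.119) and Mpc2 (-0.26, adjusted p = 0.0642) no longer passed, and Pdhb did (0.27, adjusted p = 0.00911).

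In order of level per length, Pdha1 led in hypoxia (41.5 ± 1.9 CPM per kb, SD, n = 4), followed by Pdp1 (34.8 ± 7.96) and Pdk3 (29.2 ± 0.900), whose values overlapped from 1 gene to the next. Below a gap came Pdk1 (14.9 ± 1.36) and Dlat (14.7 ± 0.636), which overlapped with each other, and then Pdk4, Pdhb and Pdk2 (11.0, 10.6 and 9.60 CPM per kb), each overlapping with the next. On this length both carrier subunits were the lowest, Mpc1 at 5.30 ± 0.256 and Mpc2 at 5.17 ± 0.610. In normoxia Pdha1 stood clear of the others at 52.6 ± 2.29 CPM per kb, and Pdk3, Pdp1, Pdk4 and Dlat followed at 25.4, 24.6, 15.9 and 15.0, each overlapping with the next. Pdhb (12.0) and Pdk1 (10.8) overlapped with each other, Pdk2 (6.96) was separate from its neighbours, and Mpc1 (4.28) and Mpc2 (4.04) overlapped. Pdk1 thus stood above Pdk4 and Pdhb in mean level in hypoxia and below both in normoxia. With the longest transcript as the length, Pdk1 stayed just above Pdk4 in normoxia (16.1 and 16.0 CPM per kb), and Mpc1 stood above Pdk4 in hypoxia (11.5 and 11.1 CPM per kb, with overlapping values).

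Beyond these 10 genes, 33 of 34 genes in 5 lists of the pathway passed the filter, and 11 of them were called without the block, 5 higher and 6 lower in normoxia, a share close to the 34.6% of all tested genes. With the replicate block 16 were called, 9 higher and 7 lower, again close to the background of 46.0%. In the rest of the PDH complex and its regulators, 4 of 5 genes were tested, with a median change of 0.16. Of these, 1 was higher and 1 lower, against 18.0% and 16.5% of all tested genes. Dld, the E3 subunit shared with the related complexes, rose by 0.50 on the log2 scale (SE 0.065, adjusted p = 0.000235), and by 0.30 in the corrected fit. Pdpr, the regulatory subunit of the phosphatase, fell by 0.31 (adjusted p = 0.0213). Pdhx, which binds E3 to the core, had a change of 0.30 (adjusted p = 0.0627, or 0.0142 with the replicate block), which was 0.20 in the corrected fit (adjusted p = 0.0964). Pdp2, the other phosphatase, had a change of 0.0078 (adjusted p = 0.971), and the testis isoform Pdha2 had 0 counts in every sample.

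The cofactors of the complex are lipoate on E2 and thiamine diphosphate on E1. None of 6 genes of lipoate attachment was called without the block (median change -0.060), and Lias, which makes the lipoyl group, was called with it (0.23, adjusted p = 0.0361) but not in the corrected fit (0.14, adjusted p = 0.195). Of 3 thiamine genes 1 rose, the plasma membrane transporter Slc19a2 (0.28, adjusted p = 0.00987), and the median change was 0.10. Over all tested genes, 34.6% were called in either direction without the block, and 18.0% were called higher.

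Among 11 genes for other fates of pyruvate, 1 was higher and 4 lower in normoxia, against 18.0% and 16.5% of all tested genes. Their median change was -0.12. Ldha, the lactate dehydrogenase subunit that favours lactate formation, fell by 0.43 on the log2 scale (SE 0.11, adjusted p = 0.0108), and Slc16a3, a lactate exporter, fell by 0.64 (SE 0.17, adjusted p = 0.0105). Bsg, the chaperone of lactate transporters, fell by 0.18 (adjusted p = 0.0380), but its change was 0.031 in the corrected fit (adjusted p = 0.564). The alanine aminotransferase Gpt fell by 0.81 (adjusted p = 0.0343), at only 6 to 33 counts per sample, and missed the threshold in the corrected fit (-0.63, adjusted p = 0.0568). Me1, the cytosolic malic enzyme that makes pyruvate, rose by 0.31 (SE 0.062, adjusted p = 0.00254), and by 0.16 in the corrected fit. Pcx, which carboxylates pyruvate to oxaloacetate, and Ldhb passed only with the replicate block, at changes of 0.15 (adjusted p = 0.0467) and 0.18 (adjusted p = 0.0491), which were 0.30 and 0.31 in the corrected fit.

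The related 2-oxoacid dehydrogenases use the same chemistry on other substrates, and the median change of their 9 genes was -0.13. Of the 9, 2 were higher and 1 lower in normoxia, against 18.0% and 16.5% of all tested genes. Dbt, the E2 core of the branched-chain complex, rose by 0.63 on the log2 scale (SE 0.092, adjusted p = 0.000395), and Ogdhl, an isoform of the oxoglutarate dehydrogenase E1, rose by 0.59 (SE 0.11, adjusted p = 0.00213). Bckdk, the kinase that inactivates the branched-chain complex and is a relative of the Pdk genes, fell by 0.35 (SE 0.078, adjusted p = 0.00458). The oxoglutarate dehydrogenase Ogdh had a change of -0.13 (adjusted p = 0.117, or 0.0386 with the replicate block), which was -0.091 in the corrected fit (adjusted p = 0.0972).

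**Figure D4:**
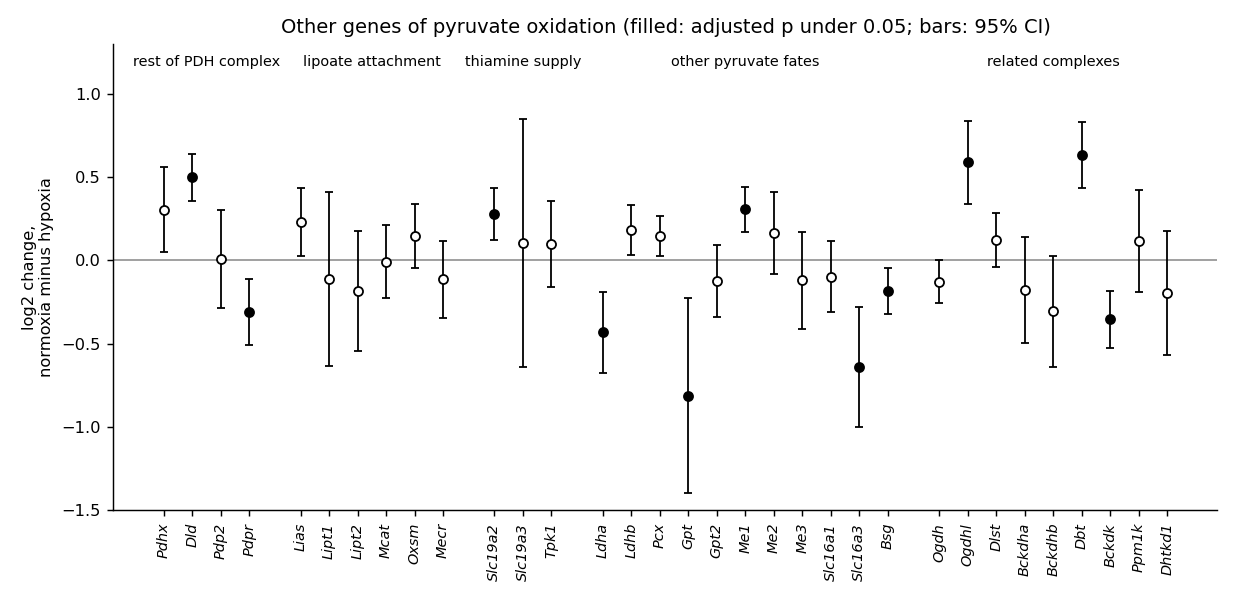
Log2 change from hypoxia to normoxia of 33 other genes of pyruvate oxidation in 5 lists, with 95% CI bars, filled where the adjusted p was under 0.05 without the block. Filled points above 0 are Dld, Slc19a2, Me1, Ogdhl and Dbt, and filled points below 0 are Pdpr, Ldha, Gpt, Slc16a3, Bsg and Bckdk.

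Of 12 tested transcription regulators tied to Pdk genes, 1 rose and 2 fell without the block, against 18.0% and 16.5% of all tested genes. The HIF subunit Hif1a, whose activity is set mainly at the protein level, rose by 0.48 on the log2 scale (adjusted p = 0.000498) and by 0.26 in the corrected fit, while Foxo3 and Rxra fell by 0.37 (adjusted p = 0.00242) and 0.31 (adjusted p = 0.000595), Rxra by 0.17 in the corrected fit. Of 10 textbook HIF targets outside the 10 genes, 8 fell (Car9, Egln3, Ankrd37, Aldoa, Pgk1, Slc2a1, Ndrg1 and Bnip3) and none rose, with a median change of -0.42. Over all tested genes, 16.5% were called lower. Vegfa (-0.064, adjusted p = 0.511) and Adm (-0.077, adjusted p = 0.595) were not called. Car9, a carbonic anhydrase, fell by 2.34 and the prolyl hydroxylase Egln3 by 0.91, against 0.46 for Pdk1. The 5 tested genes whose log2 CPM ran most like that of Pdk1 over the 8 samples were Egln1, Kctd15, Fads1, Litaf and Smarcb1 (Pearson's r of 0.986 to 0.991), and those most like Mpc1 were E230016K23Rik, Ctnnd1, Tead3, Fut4 and Trpt1 (0.957 to 0.972). These correlations describe samples that share a group difference and carry no test.

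All 12 MSC markers passed the filter, among them Ly6a (Sca-1, 4636 to 11995 counts) and Pdgfra (CD140a, 1928 to 4011 counts). In normoxia 3 were higher (Cd44, Nt5e and Itgb1) and 1 lower (Eng), against 18.0% and 16.5% of all tested genes. With the replicate block 5 were higher and 5 lower, against 23.3% and 22.7% of all tested genes. Of 9 blood cell markers 7 passed the filter, and they summed to 512 to 1040 CPM in hypoxia and 610.3 to 1144 CPM in normoxia. The sort selected against CD45, the product of Ptprc, which had 140 to 263 counts per sample and a change of 0.081 (adjusted p = 0.814). Lyz2 and Csf1r, genes of macrophages, had 4244 to 9578 and 1011 to 3180 counts per sample, whereas the T cell gene Cd3e had 0 counts in every sample. Of the 7 tested blood markers Lyz2 rose by 0.56 and C1qa fell by 0.77 on the log2 scale. With the replicate block 1 rose and 4 fell, against 23.3% and 22.7% of all tested genes. Erythroid markers summed to at most 0.231 CPM, endothelial markers to at most 2.65 CPM and adipocyte markers to 4.01 to 14.6 CPM. Whether such cells bear on the values above was not tested.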

How the data were processed

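Total RNA was sequenced as single-end reads from 4 hypoxia and 4 normoxia MSC samples. Per the methods of the study, the authors mapped reads with STAR within zUMIs and counted them with featureCounts (samtools was also used) on the mouse genome (mm10, GRCm38, also in the submitters' processing notes) with Ensembl annotation. The authors deposited raw counts per gene, not normalized. Whether counting used strand, introns or multi-mapped reads is not given in the sources used here.

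Groups came from the labels. Genes were kept by filterByExpr (edgeR 4.0.16, minimum count 5), scaled with TMM factors, expressed as log2 CPM (prior count 3) and tested with limma-trend (limma 3.58.1, R 4.3.3), Benjamini-Hochberg adjustment over 14369 genes and a threshold of 0.05. Changes are normoxia minus hypoxia and are understated at low counts. Symbols were found for 53360 of 53465 identifiers, and positions and lengths are of GRCm38. Alternatives were the edgeR quasi-likelihood test, DESeq2 1.42.0, limma-voom, other scalings, filters, prior counts and thresholds, a GC and length correction (splines of 5 degrees of freedom) and leaving out samples. Limma-trend with and without the replicate block was tested on simulated counts, as were limma-voom, the edgeR quasi-likelihood test and DESeq2 without the block. The other alternatives, among them edgeR and DESeq2 with the block, were not. The simulated counts held no pair, GC or length effect, so they do not test the handling of such effects.

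The labels use the numbers 1 to 4 in each group, and in the methods sorted cells were divided between oxygen levels. Deviations from the group means correlated across genes in every same-numbered pair (0.474, 0.275, 0.249 and 0.172 for pairs 1 to 4), and the highest correlation with another number was 0.076, so the numbers were taken to pair the samples. No samples of a group were copies (chi-square per degree of freedom at least 3.70).

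All 10 genes are named, as are genes of the 5 pathway lists and genes that passed without the block in the other lists. Also named are Vegfa and Adm, marker genes with their counts, and the 5 genes most correlated with Pdk1 and with Mpc1. The genes and lists were chosen with earlier results of these data known. Some alternatives (edgeR and DESeq2 with the replicate block, and Mpc1-ps counts added to Mpc1) were chosen after seeing the data. Promoter windows are RefSeq entries. Some genes of the marker and pathway lists are not reported here.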

Additional observations from a re-analysis of the deposited data

Results flagged for a closer look

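In each group of 4 samples, the highest or lowest value was compared with the others by Dixon's ratio, the gap to the nearest value over the whole range. Of 22 sets of values searched, 2 exceeded the 95% critical value. Chance flags about 1 in 20 sets, or 1.1 of 22. The total count of hypoxia replicate 1, 25132141, stood apart from 12929564 to 13219647 in the other hypoxia samples (ratio 0.976). The log2 CPM of Mpc1 in hypoxia replicate 1 was 3.59, against 3.45 to 3.46 in the others (ratio 0.875), and without that sample the change of Mpc1 was -0.27 (adjusted p = 0.0837).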

How the results depend on the processing

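Pdk1, Pdk2, Pdk4 and Pdha1 kept their direction and their call in all 25 alternatives. Pdk3 kept both in 18 of 25, Mpc2 in 23 of 25 and Mpc1 in 13 of 27, the exceptions being lost calls in the same direction. Pdp1 gained a call in 11 of 25 and Pdhb in 5 of 25. Of the 10 genes, 9 passed with the replicate block and 7 without it, against 46.0% and 34.6% of all tested genes. Apart from Pdhb and Pdp1, the replicate block changed no call among the 10. With DESeq2 and the replicate block 7 passed, against 4987 of all tested genes. Pdp1 was then called (adjusted p = 6.45e-12) and Mpc1 was not (adjusted p = 0.0942). The edgeR quasi-likelihood test, DESeq2 and limma-voom without the block also called 7 each, against 4862, 4710 and 4712 of all tested genes. Scaling by library size alone left 2 lower calls among the 10 genes and 1575 over all genes. At an adjusted p of 0.01, 4 of the 10 genes passed, 2 of them lower, and 2925 of all genes passed, 1546 higher and 1379 lower. Leaving out 1 sample, or 1 pair with the block, gave 5 to 8 calls among the 10 genes, against 3838 to 6107 over all genes tested then. Of the calls among the 10 genes, 3 to 6 were lower, against 1819 to 3049 over all genes. The 3 came without hypoxia replicate 3, hypoxia replicate 4 or normoxia replicate 3. Dlat, never called, was reversed to -0.069 with the GC and length correction (adjusted p = 0.377, or 0.295 with the replicate block) and to -0.0099 without normoxia replicate 1 (adjusted p = 0.928), its values with a sample left out reaching 0.057. With the longest transcript as the length, the kinase shares were 27.1% and 22.3% for Pdk1 in hypoxia and normoxia, 13.5% for Pdk2 in normoxia, 43.0% for Pdk3 in hypoxia, and 13.5% and 22.0% for Pdk4. These shares divide the same CPM by another length. The cause of the other shifts in this section was not tested. The lowest counts among the 10 genes were those of Mpc1, 112 to 283 per sample.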
